A study of Mus musculus with 6 samples.

Results

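Fibronectin, osteopontin and 8 further glycoproteins of the extracellular matrix were followed in RNA sequencing libraries of biliary epithelial cells, which form the wall of the bile ducts, from mouse liver. The genes were Fn1, Spp1, Tnc, Vtn, Thbs1, Thbs2, Postn, Sparc, Fbn1 and Fbln1, chosen by symbol, and all 10 were found among the 25302 rows of the table. Both groups carried floxed alleles of Sox9, a transcription factor gene of bile duct cells. The 3 Control samples had the genotype Sox9fl/fl without Cre, and the 3 Sox9cKO samples had Sox9fl/fl:AlbCre+/-, in which the albumin promoter drives Cre. That promoter is active in hepatocytes and in the fetal progenitors that give rise to both hepatocytes and bile duct cells, so recombination in this model is not limited to the cells that were sequenced. Age, sex, strain background and whether each sample came from a separate animal are not given in the sources used here, so the p-values measure the spread between these samples, which may be technical in part.

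Matrix glycoproteins are secreted, bind cells and link the fibrous parts of the matrix. Fibronectin, vitronectin and osteopontin carry an RGD motif that integrins on the cell surface recognise, thrombospondins and SPARC modulate cell adhesion and growth factor access, fibrillin and fibulin build microfibrils and elastic fibres, and tenascin-C and periostin are typical of remodelling stroma. In the liver, osteopontin is a marker of bile duct cells, plasma fibronectin and vitronectin are secreted by hepatocytes, and periostin, fibrillin and fibulin are best known from fibroblasts and stellate cells.

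Libraries held 11883496 to 16191990 reads assigned to genes, and values are given as normalized reads, obtained through division by 1 size factor per library. The floxed gene Sox9 measured 6211, 6043 and 6293 for Control 1 to 3 against 3363, 3165 and 3340 for Sox9cKO 1 to 3, so every library followed its label while transcript remained. The 16 biliary markers searched were present in every library and summed to 169474 to 209129 in Control and 169012 to 224120 in Sox9cKO.

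Of the 10 genes, all passed the minimum mean of 10 normalized reads, and 2 were called in the comparison of Sox9cKO with Control (limma, Benjamini-Hochberg adjusted p under 0.05), Fn1 and Vtn, both higher in Sox9cKO. For comparison, 2.97% of the 17153 genes tested were called. The 10 genes were chosen with earlier results of these data known, so the shares over all genes give a scale and no test. When the replicate number was fitted as a block, 4 of the 10 were called, the 2 above and Sparc higher and Spp1 lower, where 8.05% of all genes tested were called. The values of the groups did not overlap for 2 of the 10 genes, against 24.2% of all genes tested. The median log2 fold change was 0.49 over the 10 genes and 0.036 over all genes tested.

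**Figure D1:**
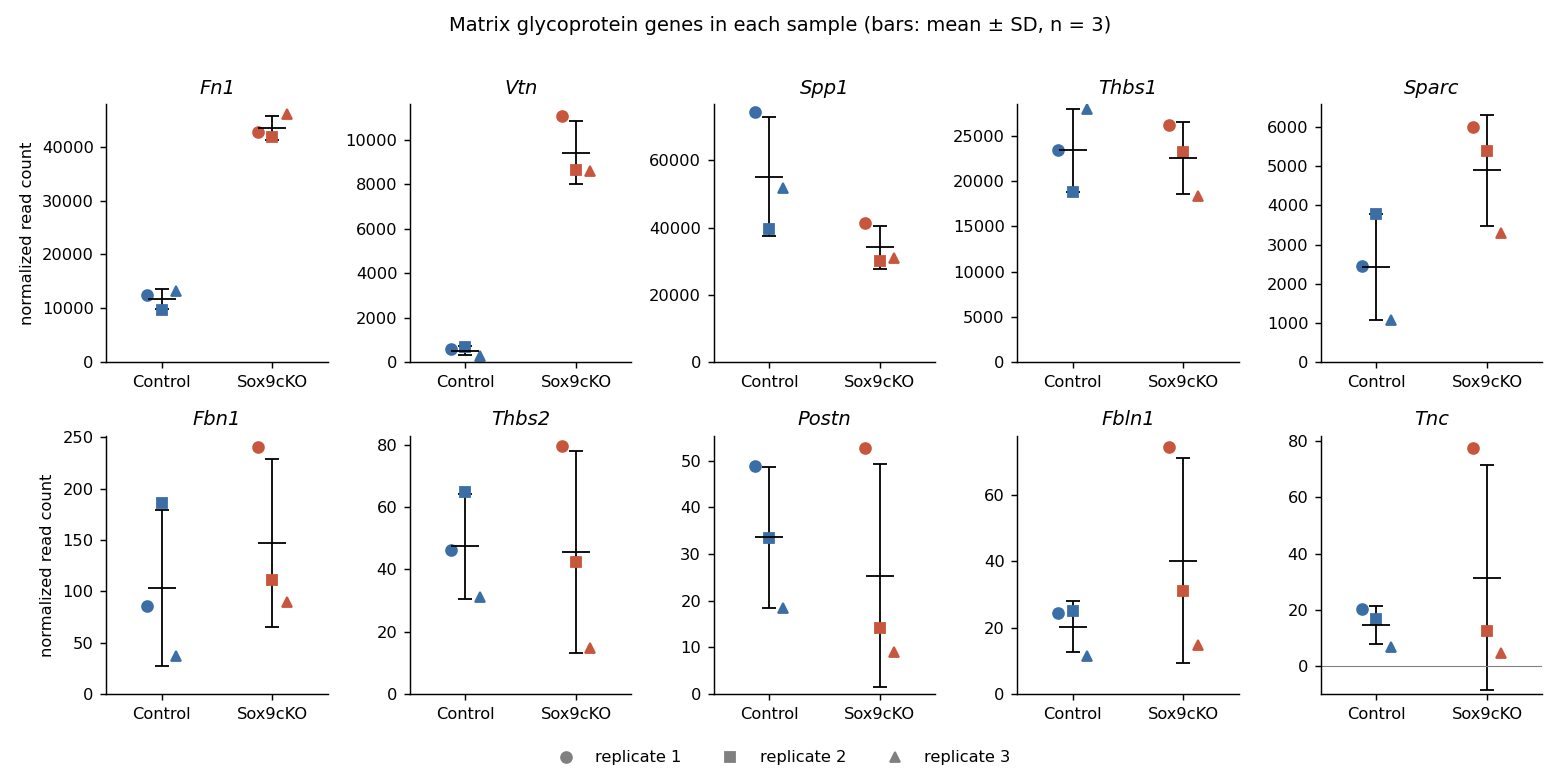
Normalized read count (linear axis) of each of the 10 genes in the 3 Control and 3 Sox9cKO samples, with a symbol for each replicate number and the mean ± SD (n = 3). The groups are apart in Fn1 and Vtn and overlap in the other 8, and replicate 1 is the highest Sox9cKO sample for all 5 genes in the lower row.

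Fn1 encodes fibronectin, which cells assemble into fibrils through integrin binding. It had 12574, 9628 and 13164 normalized reads in the 3 Control samples, in order of replicate number, and 42616, 41711 and 45986 in the Sox9cKO samples (ENSMUSG00000026193). Every Sox9cKO sample was above every Control sample, and the spread within a group was small beside the gap. The log2 fold change was 1.89 ± 0.15 (standard error), a 3.72-fold rise with a 95% confidence interval of 2.91 to 4.74 (adjusted p = 0.00261, limma). Between samples of the same replicate number the ratio was 3.39, 4.33 and 3.49. The count is a total over all splice forms, so the fibronectin forms with and without the extra domains were not separated. In the GENCODE M21 annotation a gene named Apol7d overlaps Fn1 on the opposite strand. Its values were 81.5, 51.0 and 83.0 in Control and 259.7, 244 and 225 in Sox9cKO. That gave a log2 fold change of 1.77 (adjusted p = 0.00969, limma). The highest Apol7d value, 259.7, stands beside a lowest Fn1 value of 9628. Whether counting used the strand is not given in the sources used here, so reads from the stretch shared by the pair cannot be told apart.

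Vtn encodes vitronectin, a plasma and matrix glycoprotein that binds integrins. It had 589, 714 and 303 normalized reads in the Control samples and 11057, 8643 and 8595 in the Sox9cKO samples (ENSMUSG00000017344). The lowest Sox9cKO sample lay far above the highest Control sample. The log2 fold change was 4.22 ± 0.31 (standard error), an 18.6-fold rise with a 95% confidence interval of 11.3 to 30.5 (adjusted p = 0.00173, limma). By replicate number the ratio was 18.8, 12.1 and 28.4. Fn1 and Vtn were called in each of the 6 fits that left out 1 sample.

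Because both genes are also transcribed in hepatocytes, 14 hepatocyte markers were read beside them. Their summed level was 22907 to 35503 in Control and 30184 to 45863 in Sox9cKO, most of it Alb (albumin), and no marker was at 0. Alb had 27683, 17384 and 18944 in Control and 32147, 21399 and 35363 in Sox9cKO, with overlapping groups and a log2 fold change of 0.47 (adjusted p = 0.38, limma). Of the 14 markers 2 were called, both higher, namely Tat (log2 fold change 2.26) and Tdo2 (1.76), enzymes of tyrosine and tryptophan breakdown. Over all genes tested, 2.97% were called. A further marker, the transcription factor gene Hnf4a, had 5329, 3802 and 6320 in Control and 10056, 6994 and 8629 in Sox9cKO, without overlap, and its log2 fold change of 0.75 was called with the block only (adjusted p = 0.017, against 0.131 without it, limma). Of the 14 markers 10 had a log2 fold change above 0, with a median of 0.36. The urea cycle gene Cps1 (28.6 to 77.2 in Control and 49.8 to 172 in Sox9cKO) and the cytochrome gene Cyp2e1 (31.6 to 128 and 31.7 to 122) stayed at low counts with overlapping groups. The part of hepatocyte RNA in the Fn1 and Vtn differences was not tested. In bulk RNA, more cells of a type and more RNA per cell cannot be told apart.

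Spp1 encodes osteopontin, a secreted phosphoprotein that binds integrins and CD44. It had 74187, 39519 and 51678 normalized reads in the Control samples and 41470, 30026 and 30910 in the Sox9cKO samples (ENSMUSG00000029304). The groups overlapped, since Sox9cKO replicate 1 lay above Control replicate 2, but within each replicate number Sox9cKO was the lower sample, at ratios of 0.559, 0.76 and 0.598. The log2 fold change was -0.66 ± 0.25 (standard error), with a 95% confidence interval of -1.25 to -0.07, and was not called without the block (adjusted p = 0.23, limma). A fit that blocks on the replicate number called it (adjusted p = 0.0321, limma). Leaving out Control replicate 1, the highest sample, gave -0.42 (adjusted p = 0.491, limma).

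Sparc encodes SPARC (osteonectin), a collagen-binding glycoprotein. It had 2443, 3771 and 1080 normalized reads in the Control samples and 5995, 5378 and 3291 in the Sox9cKO samples (ENSMUSG00000018593). The groups overlapped through Control replicate 2 and Sox9cKO replicate 3, while each Sox9cKO sample was above the Control sample of its number, at ratios of 2.45, 1.43 and 3.05. The log2 fold change was 1.14 ± 0.45 (standard error), with a 95% confidence interval of 0.08 to 2.19, and was called with the replicate block (adjusted p = 0.0214, limma) but not without it (adjusted p = 0.245). It ranged from 0.64 without Control replicate 3 to 1.54 without Control replicate 2.

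Sparc is strongly transcribed in endothelium, so 14 endothelial markers were read beside it. Their summed level was 14321, 46076 and 2058 in the Control samples and 36612, 47139 and 7477 in the Sox9cKO samples, and no marker was at 0 in any group. Both Sparc and this sum were lowest in Control replicate 3. Other samples differed in order. Sox9cKO replicate 3 was below Control replicate 1 in the sum but above it in Sparc (3291 against 2443). Sox9cKO replicate 1 was likewise below Control replicate 2 in the sum but above it in Sparc (5995 against 3771). The ratio of the sum between samples of the same number was 2.56, 1.02 and 3.63, with the smallest value at replicate 2 as for Sparc. All 14 markers had a log2 fold change above 0 (median 1.09), none was called without the block, and Vwf alone was called with it. Their part in the Sparc difference was not tested.

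**Figure D2:**
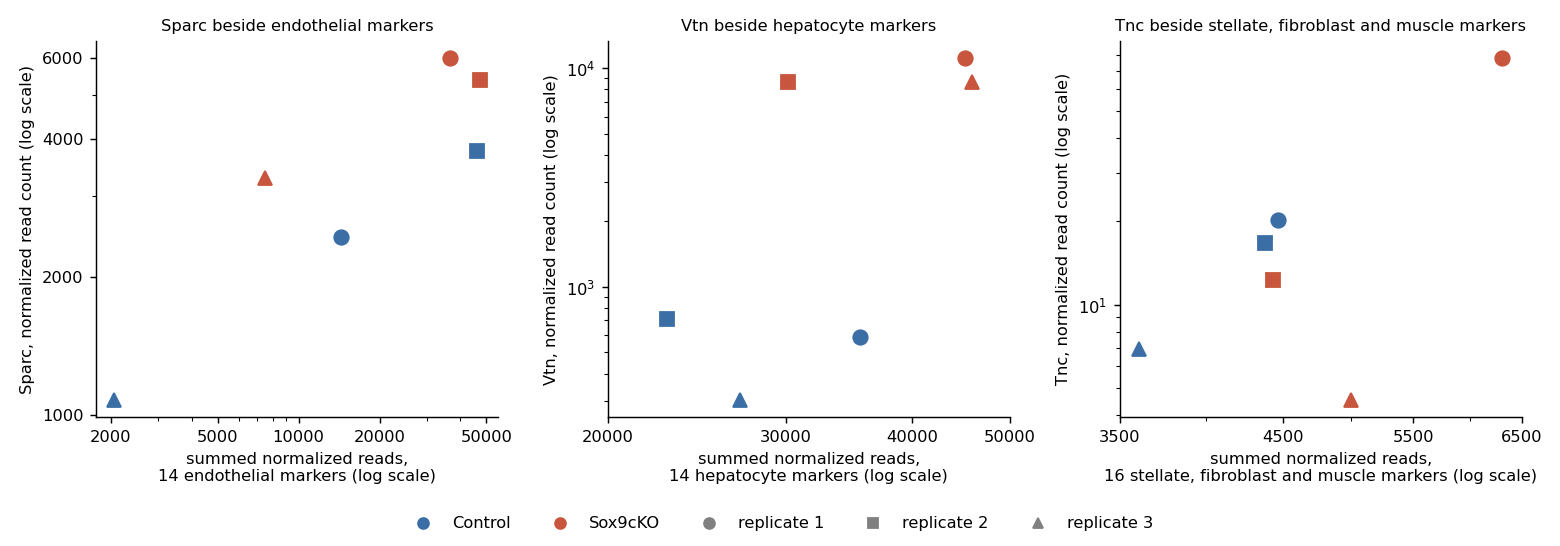
Normalized read count of Sparc, Vtn and Tnc (vertical, log scale) against the summed normalized reads of endothelial, hepatocyte, and stellate, fibroblast and muscle markers (horizontal, log scale) in the 6 samples. Sparc and the endothelial sum are both lowest in Control replicate 3. Sox9cKO replicate 3 has more Sparc than Control replicate 1 at a lower endothelial sum. The Vtn groups are apart, while the hepatocyte sums, which are mostly Alb, overlap. Tnc and the third sum, which is mostly Reln and Rgs5, are highest in Sox9cKO replicate 1, where Rgs5 is lowest. The part of these cell types in the values of the genes was not tested.

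Thbs1 encodes thrombospondin-1, which binds CD47 and CD36 and can activate latent TGF-beta. It had 23427, 18792 and 27956 normalized reads in the Control samples and 26148, 23177 and 18350 in the Sox9cKO samples (ENSMUSG00000040152). The groups overlapped fully and the replicate numbers went in different directions, at ratios of 1.12, 1.23 and 0.656. The log2 fold change was -0.05 ± 0.20 (standard error), and the 95% confidence interval of the fold reached from 0.704 to 1.33 (adjusted p = 0.934, limma). The sign changed without Control replicate 3 (0.09) and without Sox9cKO replicate 3 (0.09). A gene annotated on the opposite strand, Gm29233, had 19.8 to 43.7 normalized reads.

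The other 5 genes were rare in these libraries, with 4 to 242 reads per sample, and none was called in any fit. Fbn1, the microfibril protein fibrillin-1, had 85.7, 187 and 36.9 normalized reads in Control and 241, 112 and 89.4 in Sox9cKO. Thbs2, the second thrombospondin of the same subgroup as Thbs1, had 46.2, 65.0 and 31.1 in Control and 79.6, 42.5 and 14.7 in Sox9cKO. Postn, the stromal protein periostin, had 48.8, 33.4 and 18.4 in Control and 52.7, 14.2 and 9.06 in Sox9cKO. All 3 had overlapping groups.

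Fbln1, the elastic fibre and basement membrane protein fibulin-1, had 24.4, 25.1 and 11.5 normalized reads in Control and 74.6, 31.2 and 14.7 in Sox9cKO. Tnc, the large stromal glycoprotein tenascin-C, had 20.2, 16.7 and 6.91 in Control and 77.6, 12.3 and 4.53 in Sox9cKO. In all 5 genes Sox9cKO replicate 1 was the highest of the 6 samples and Control replicate 3 or Sox9cKO replicate 3 the lowest. Their log2 fold changes lay between -0.67 (Postn) and 0.74 (Fbln1), with 95% confidence intervals that included 0 and were as wide as -1.90 to 2.54 for Tnc. Without Sox9cKO replicate 1 the log2 fold change of Tnc went from 0.32 to -0.75 and that of Fbln1 from 0.74 to 0.15. A change of any of these 5 genes within its interval was not resolved with 3 samples per group.

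Markers of stellate cells, fibroblasts and smooth muscle were read beside these 5 genes. The 16 markers summed to 4469, 4376 and 3608 in the Control samples and 6306, 4435 and 4998 in the Sox9cKO samples, none was at 0, and none was called with or without the block. Their median log2 fold change was 0.06, with 9 of 16 above 0. Most of the sum was Reln (1579 to 2799) and Rgs5 (636 to 1759), 2 genes of stellate cells and pericytes. The highest of the 6 samples was Sox9cKO replicate 1 for 9 of the 16 markers. The fibroblast collagen gene Col1a1 had 249, 174 and 76.0 in Control and 759, 197 and 158 in Sox9cKO, so it too was highest in Sox9cKO replicate 1 and lowest in Control replicate 3. Rgs5 and the stellate cell gene Lrat (10.9 in Sox9cKO replicate 1) were instead lowest in Sox9cKO replicate 1. The smooth muscle gene Acta2 had 9.22 to 33.8 over all samples. The part of stromal RNA in these 5 genes was not tested.

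**Figure D3:**
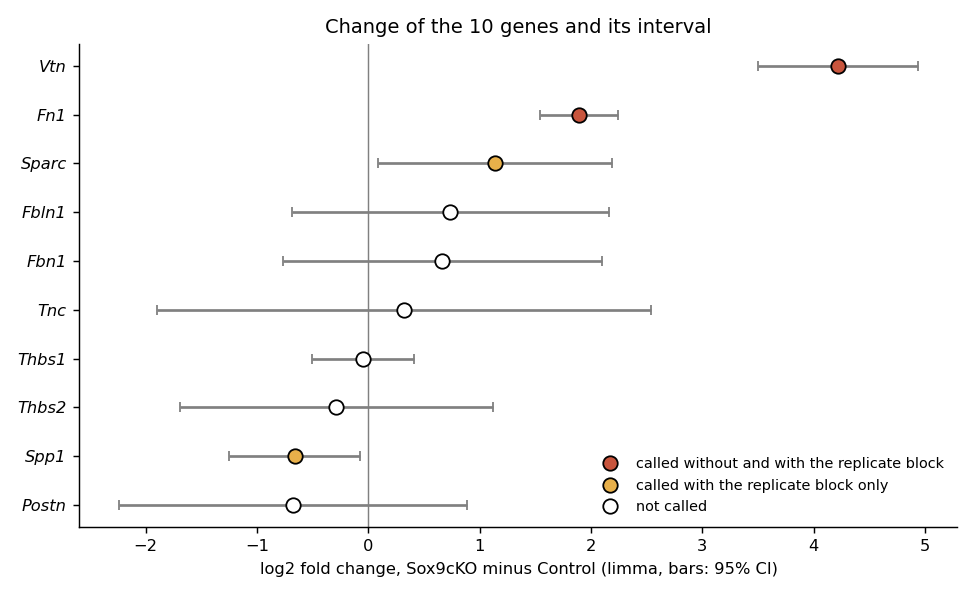
Log2 fold change of each of the 10 genes, Sox9cKO minus Control, with its 95% confidence interval from limma. Vtn (4.22) and Fn1 (1.89) lie well above 0, Sparc (1.14) and Spp1 (-0.66) were called with the replicate block only, and the intervals of the other 6 genes include 0.

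Levels were compared between genes as normalized reads per kb of the longest protein-coding transcript in GENCODE M21. In Control the mean level per kb was 36581 for Spp1, 4000 for Thbs1, 1418 for Fn1, 1057 for Sparc and 307 for Vtn. Fn1 (1158 to 1583 per kb) and Sparc (469 to 1640 per kb) overlapped in their Control values, while the other neighbours among these 5 did not. The remaining 5 genes lay between 2.05 (Tnc) and 10.5 (Postn) reads per kb on average. Their neighbours in this order overlapped in Control, except that Tnc lay below Fbln1 in all samples (up to 2.84 against at least 3.15 per kb).

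In Sox9cKO the order per kb was Spp1 at 22651, Vtn at 5408, Fn1 at 5224, Thbs1 at 3857 and Sparc at 2125. The Vtn range per kb (4928 to 6340) held the whole Fn1 range (5016 to 5531), so this pair did not differ beyond its spread, whereas in each Control sample Vtn per kb was 0.11 to 0.353 of Fn1. Spp1 remained the highest of the 10 genes per kb in every sample. However, its level per kb went from 21.7 to 32.6 times that of Fn1 in Control to 3.71 to 5.37 times in Sox9cKO. In normalized reads not divided by length, Fn1 was 0.169 to 0.255 times Spp1 in Control and 1.03 to 1.49 times in Sox9cKO. These ratios did not overlap between the groups, and no test was run on them.

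**Figure D4:**
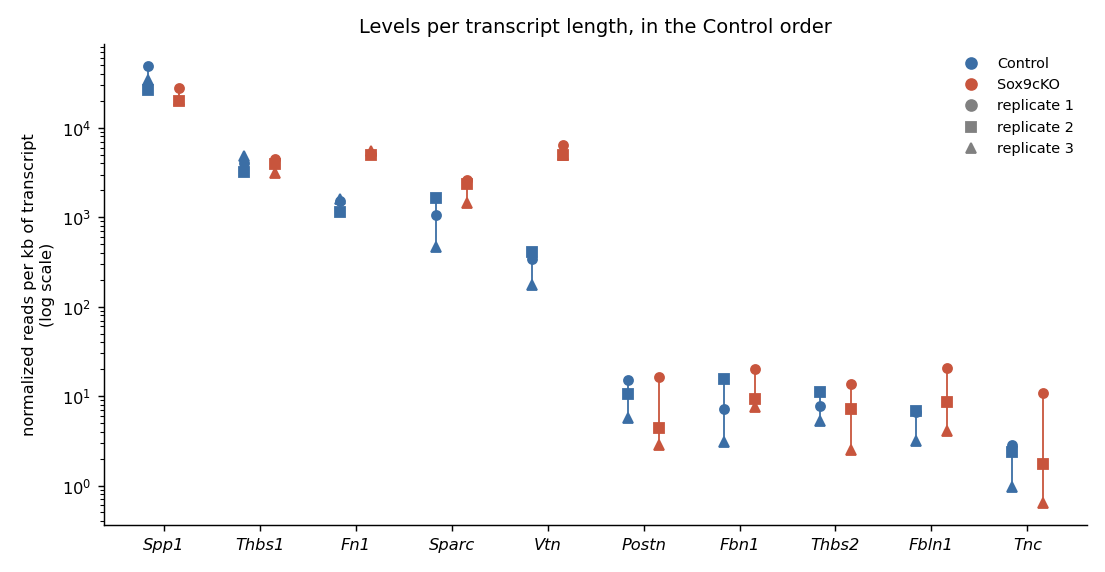
Normalized reads per kb of transcript (log scale) for the 10 genes in the 3 Control and 3 Sox9cKO samples, in the order of the Control means, with lines over the range of each group. Spp1 is highest in both groups, and the 5 genes on the right stay at or under 20.4 reads per kb. By its mean Vtn goes from the fifth place to the second, but it is above Fn1 only in Sox9cKO replicate 1 (1.24, 0.988 and 0.891 of Fn1 in Sox9cKO replicates 1 to 3).

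The promoters of the members, besides Fn1, that were called in either fit are shown to let their sequences be compared. RefSeq entries (GRCm38.p6) were found for 8 of the 10 genes, and Fn1 and Thbs1 had none in the table used. The 250 bases before the annotated start are given on the gene's strand for Vtn (chr11:78498870-78499119, plus strand), Spp1 (chr5:104434861-104435110, plus strand, the first of 2 starts) and Sparc (chr11:55420081-55420330, minus strand). Capitals mark matches to any of 6 motifs searched on both strands.
Vtn: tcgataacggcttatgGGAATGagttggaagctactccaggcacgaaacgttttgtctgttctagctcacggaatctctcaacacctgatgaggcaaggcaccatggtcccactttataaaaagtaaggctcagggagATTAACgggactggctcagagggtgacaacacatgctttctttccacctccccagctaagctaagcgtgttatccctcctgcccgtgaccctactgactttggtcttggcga
Spp1: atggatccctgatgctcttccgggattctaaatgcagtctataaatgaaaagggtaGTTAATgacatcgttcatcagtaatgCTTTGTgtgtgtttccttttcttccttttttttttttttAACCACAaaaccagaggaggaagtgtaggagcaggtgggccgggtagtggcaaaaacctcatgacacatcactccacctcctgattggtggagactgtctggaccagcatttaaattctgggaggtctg
Sparc: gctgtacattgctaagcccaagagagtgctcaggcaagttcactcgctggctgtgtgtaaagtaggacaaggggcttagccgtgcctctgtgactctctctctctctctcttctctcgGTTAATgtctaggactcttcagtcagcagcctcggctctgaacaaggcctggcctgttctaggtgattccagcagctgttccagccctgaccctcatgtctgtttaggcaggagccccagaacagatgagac

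The motifs were the SOX cores ACAAAG and AACAAT, the TEAD motif GGAATG, the AP-1 motif TGANTCA, the HNF1 motif GTTAAT and the RUNX motif AACCACA. Vtn held GGAATG at -234 and GTTAAT at -112 from the start, the latter on the opposite strand and so printed as ATTAAC. Spp1 held GTTAAT at -194, ACAAAG at -168 (on the opposite strand, printed as CTTTGT) and AACCACA at -129. Sparc held GTTAAT at -132. The share of all 32851 promoter windows of this length with a match was 16.5% for ACAAAG, 9.42% for AACAAT, 12.6% for GGAATG, 6.75% for TGANTCA, 6.43% for GTTAAT and 4.4% for AACCACA. Of the 8 members with a sequence, Postn also held GTTAAT and AACAAT, Fbln1 held AACAAT, and none held TGANTCA. A match describes letters in this window and is not a binding site.

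Integrin chains and other matrix receptors, some of them described below as binding collagens or laminin, were read as a list of 19 genes, all of them tested. Called genes numbered 1 higher and 1 lower without the replicate block and 6 higher and 1 lower with it. Over all genes tested, 2.97% were called without the block and 8.05% with it. The median log2 fold change of the list was 0.42. Itga2, the integrin chain that pairs with Itgb1 to bind collagens, had 451, 1354 and 1363 normalized reads in Control and 3375, 7967 and 6701 in Sox9cKO. Its log2 fold change was 2.58 ± 0.49 (adjusted p = 0.0405, limma), and the call was lost in all 6 leave-one-out fits (adjusted p up to 0.114). Itgb8, which pairs with the alpha v chain and activates latent TGF-beta, fell from 1850 ± 312 to 859.8 ± 140 (SD, n = 3), a log2 fold change of -1.10 (adjusted p = 0.0198, limma), with the call lost in 4 of the 6 (adjusted p up to 0.0858).

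The main fibronectin receptor chains Itga5 and Itgb1 gave log2 fold changes of 0.05 and 0.13 with overlapping groups (adjusted p = 0.91 and 0.613, limma). Of the vitronectin and osteopontin receptors, Itgav gave 0.43, Itgb5 0.01 and Itgb3 1.22, none of them called. Itgb8, given above, was lower, and the further integrin beta chain Itgb6 gave 0.92. Itgb6 had groups without overlap, as had 24.2% of all genes tested. It was not called (adjusted p = 0.158, and 0.0699 with the block, limma). Apart from Itgb8, these genes and the following ones were named after their values were seen. The osteopontin and hyaluronan receptor Cd44 (log2 fold change 0.68), the thrombospondin receptors Cd47 (0.47) and Cd36 (3.14), the laminin-binding Itga3 (0.48) and the syndecan Sdc1 (0.86) were higher at a limma adjusted p between 0.00617 and 0.0367 with the replicate block, and between 0.0504 and 0.25 without it. Cd36, also an endothelial gene of the liver, had 363, 532 and 77.2 in Control and 2166, 2149 and 2223 in Sox9cKO.

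Relatives of the 10 genes and other matrix glycoproteins made a list of 40, of which 37 were in the table and 30 were tested. Without the block 4 were called, all higher, and with it 5 higher and 2 lower, at a median log2 fold change of 0.24. The shares called over all genes tested were 2.97% and 8.05%. Ltbp2 and Ltbp1 encode latent TGF-beta binding proteins, which resemble fibrillins and attach to fibronectin and microfibrils. Ltbp2 had 43.7, 40.8 and 38.0 normalized reads in Control and 728, 1769 and 1042 in Sox9cKO, a log2 fold change of 4.72 ± 0.31 (adjusted p = 0.00123, limma). Ltbp1 rose from 711 ± 189 to 3217 ± 1043 (SD, n = 3), a log2 fold change of 2.17 (adjusted p = 0.00969, limma).

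Npnt, the basement membrane glycoprotein nephronectin that binds integrin alpha 8 beta 1, had 129, 109 and 105 normalized reads in Control and 544, 369 and 568 in Sox9cKO. Its log2 fold change was 2.08 ± 0.21 (adjusted p = 0.00445, limma). Spock1 is a testican with a domain shared with SPARC. It had 1 read in each Control sample and 36, 11 and 12 reads in Sox9cKO replicates 1 to 3. Its mean over the 6 samples, 10.5, passed the minimum of 10 only through Sox9cKO (mean 19.9, against 0.974 in Control). Its call (adjusted p = 0.0321, limma), which is among the 4 counted above, therefore rests on a filter passed through that group. The call was also lost in all 6 leave-one-out fits (adjusted p up to 0.126). Groups did not overlap in any of these 4 genes, which were named because they were called. Over all genes tested, 24.2% had groups without overlap.

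Enzymes and partners that modify, splice or assemble matrix glycoproteins were a list of 22, of which 21 were in the table and 20 were tested. Called genes were 3 higher without the block and 4 higher with it, and none lower, at a median log2 fold change of 0.37. Among all genes tested, the shares called were 2.97% and 8.05%. Plau, the protease urokinase, rose from 379.8 ± 191 to 1257 ± 85.8 (SD, n = 3), a rise of 1.83 on the log2 scale (adjusted p = 0.0277, limma). Bmp1, a protease that matures collagens and other matrix proteins, rose from 634.5 ± 39.9 to 1141 ± 169, a log2 fold change of 0.84 (adjusted p = 0.0285, limma). Leaving out 1 of the 6 samples ended the call in 5 fits for Plau and in 5 for Bmp1 (adjusted p up to 0.126). Tgm2, the transglutaminase that cross-links fibronectin and chosen with its values known, was higher by 0.75 (log2) and passed with the block only (adjusted p = 0.00681 against 0.0845, limma).

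**Figure D5:**
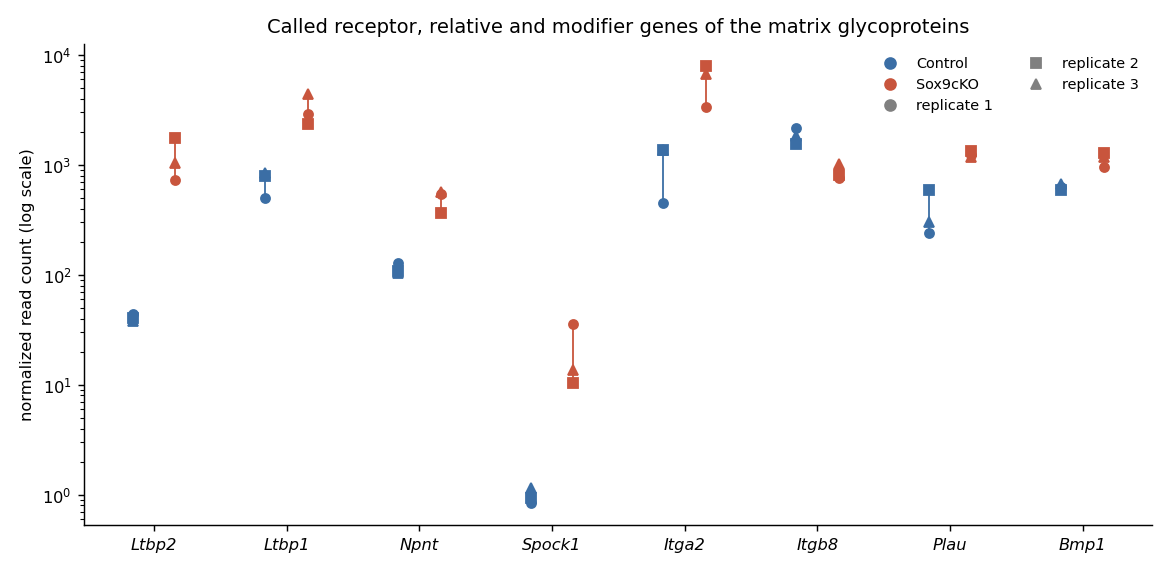
Normalized read count (log scale) of 8 called genes of the receptor, relative and modifier lists in the 3 Control and 3 Sox9cKO samples, with lines over the range of each group. The groups are apart for all 8, with Itgb8 lower and the other 7 higher in Sox9cKO. These genes were picked because they were called, and 24.2% of all genes tested had groups without overlap.

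The genes whose pattern over the 6 samples was most like that of Fn1 and Spp1 were taken from 9939 others with a mean of at least 100, by Pearson correlation of the log2 values, as a description. For Fn1 these were Gnl3l (0.999), Vnn1 (0.998), Tmem237 (0.997), Pzp (0.997) and Plxnb2 (0.995), all with higher values in each Sox9cKO sample, so that the distance between the groups sets most of the coefficient. Pzp, a secreted protease inhibitor, had 946, 715 and 974 normalized reads in Control and 7118, 7627 and 9987 in Sox9cKO. For Spp1 they were Sephs2 (0.999), Fbxo21 (0.996), Lmo4 (0.986), Stbd1 (0.984) and Mme (0.982), all highest in Control replicate 1 as Spp1 was. Sephs2, an enzyme of selenoprotein synthesis, had 1083, 601 and 795 in Control and 633, 486 and 480 in Sox9cKO.

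Markers of other cells that secrete these glycoproteins were present at lower levels. The 12 Kupffer cell and leukocyte markers in the table summed to 1093 to 1276 in Control and 1620 to 1852 in Sox9cKO, mostly Csf1r (log2 fold change 0.92, called). Of the 9 that were tested only 2 had a log2 fold change above 0, the median was -0.45, and the leukocyte gene Lyz2 was called lower with the block (adjusted p = 0.0417, limma), while the macrophage gene Adgre1 had 2.30 to 21.0 and Marco, also of macrophages, was at 0 in Sox9cKO replicate 3. The 6 platelet markers in the table, read because platelets hold thrombospondin-1 and SPARC, summed to 125 to 170 and 119 to 134, mostly Itga2b, with Pf4 at 5.76 to 19.9 and Gp9 at 0 in Sox9cKO replicate 3. The 6 mesothelial markers summed to 954 to 983 and 1158 to 2173, mostly Msln (log2 fold change 2.01, called). The median log2 fold change of the 6 was -0.15, with 3 above 0, and Wt1 had 19.3 to 60.7. Gpm6a, next in level, was lower in every Sox9cKO sample (224 to 368 against 422 to 559) and was not called. Their part in the results was not tested.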

How the data were processed

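RNA of biliary epithelial cells from 3 Control and 3 Sox9cKO mouse liver samples was sequenced as rRNA-depleted total RNA, with stranded libraries that carry molecular identifiers, per the labels' protocols. The authors deposited a signal per gene, named normalized counts per the file headers. DESeq2 1.36.0 and genome build GRCm39 are listed in the submitters' processing notes, and the aligner, the counting program and the use of strand and identifiers are not given in the sources used here. In each of the 6 columns 100% of the values were whole multiples of 1 step (tolerance 0.001 reads), which gave the reads back, with size factors of 0.868 to 1.19. The lowest total of a row over the 6 samples was 10 reads.

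Genes with a mean of at least 10 were tested in R 4.3.3 with limma 3.58.1 on log2(value + 1) with an intensity trend, two-sided, adjusted over all 17153 genes (threshold 0.05). The pseudocount can understate fold changes of rare genes. A pseudocount of 5 against 0.1 made the log2 fold changes of Thbs2, Postn, Fbn1, Fbln1 and Spock1 smaller in size. It raised that of Tnc from 0.30 to 0.35. Same-numbered samples deviated together (correlations 0.207, 0.472 and 0.542 over genes, each above those of the other pairings), so the replicate number, which comes from the sample titles, was also fitted as a block. Other alternatives were edgeR 4.0.16 and DESeq2 1.42.0 on the recovered reads, pseudocounts of 0.1 and 5, sample weights, no trend, quantile normalization, TMM factors, dropping the filter or raising it to 50, and leaving out each sample. The scripts were tested on simulated data. The members and gene lists were chosen with earlier results of these data known. Named genes were the 10 members, up to 6 called genes per list by p-value, the 5 genes most like Fn1 and like Spp1, and those marked as named after their values were seen. Marker genes are given as levels. A called gene of the lists is counted but not reported here by name. Coordinates refer to GRCm38.p6 RefSeq promoters and not to the build of the table.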

Additional observations from a re-analysis of the deposited data

How the results depend on the processing

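Fn1 and Vtn were called and higher in Sox9cKO in each of 18 alternatives, at 1.75 to 1.98 and 3.85 to 4.47 (log2 fold change). With 4 of the 10 genes called, limma with the replicate block and edgeR with the replicate block differed from the 2 called otherwise. The block added Sparc (log2 fold change 1.14 and 1.09, adjusted p 0.0214 and 0.0351) and Spp1 (-0.66 and -0.70, adjusted p 0.0321 and 0.0367), and no other alternative called either gene. No other member changed its call under the block. Tnc had a negative log2 fold change with sample weights (-0.11), and over the fits without 1 sample it ranged from -0.75 to 1.17, Thbs1 from -0.20 to 0.0926 and Thbs2 from -0.83 to 0.35. These 3 genes were never called, and Postn, Fbn1 and Fbln1 kept their sign and were not called either. Over all genes, 510 were called, and 1043 with sample weights, 1381 with limma and the replicate block, 491 with edgeR on the recovered reads, 1160 with edgeR and the replicate block and 1214 with DESeq2. The cause was not tested. Without 1 sample, where fewer samples are fitted, 199 to 387 genes were called, fewest without Control replicate 1. Of the partners, Ltbp2, Ltbp1 and Npnt were called under every alternative. Calls of Itgb8, Itga2, Plau and Bmp1 were also lost without the intensity trend, that of Bmp1 with quantile normalization and that of Spock1 with a pseudocount of 5. At a minimum mean of 50, Tnc, Thbs2, Postn, Fbln1 and Spock1 have no value. These alternatives for the partners were chosen after seeing the data.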
